A study of Homo sapiens with 8 samples.

Results

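The 10 genes described here encode the nuclear lamina and proteins of the inner nuclear membrane that hold chromatin at the nuclear rim: the lamins LMNA, LMNB1 and LMNB2, the membrane proteins LBR, EMD, TMPO, LEMD2, LEMD3 and SUN1, and the chromatin-bridging protein BANF1. They form a family by function, and the rule that names them does not use their measured values. Earlier results of these data were known when they were chosen. They were found by gene symbol among the 60725 genes of the count table, where all 10 had reads in every library. RNA-seq was performed on HAP1 cells, a near-haploid human cell line derived from a chronic myeloid leukaemia. In all groups the cells came from 1 clone (SC9) that carried dCas9-BFP-KRAB under an EF1-a promoter, a catalytically dead Cas9 fused to a repressor domain, so that a guide RNA silences the promoter it is directed to (CRISPRi). A puromycin-selectable lentiviral guide was added against ADAM22 (the control, 3 libraries), NELFE (3 libraries) or NELFB (2 libraries), and polyadenylated RNA was collected after 144 h. The control cells thus carried the same repressor protein and a guide of their own, and no untransduced cells were part of these libraries. NELFE and NELFB are subunits of the negative elongation factor (NELF), which holds RNA polymerase II in promoter-proximal pausing, and the study asked whether NELF represses genes in lamina-associated domains.

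The lamina is a meshwork of intermediate filaments under the inner nuclear membrane. B-type lamins (LMNB1, LMNB2) keep a lipid anchor and stay at the membrane, whereas the A-type lamins made from LMNA are also found in the nuclear interior and are low in undifferentiated cells. LBR and the A-type lamins are the known tethers of peripheral heterochromatin, and proteins with a LEM domain (EMD, TMPO, LEMD2, LEMD3) bind chromatin through BANF1. The envelope is taken apart and rebuilt at each mitosis, and the transcripts of several of these genes are known to be more abundant in proliferating cells. On GRCh38 the lamin genes span chr1:156082573-156140081 (LMNA, plus strand), chr5:126776623-126837020 (LMNB1, plus strand) and chr19:2427638-2456959 (LMNB2, minus strand). LBR spans chr1:225401502-225428925 (minus strand), TMPO chr12:98515579-98550351 (plus strand) and LEMD2 chr6:33771202-33789130 (minus strand).

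Each library held between 22037423 and 24444185 reads counted on genes, and the 10 genes had between 829 and 13782 reads in a library. Within the control group, replicate 1 stood apart from the other libraries. A chi-square of the gene counts per degree of freedom was 17.2 between control replicates 1 and 2 and 29.6 between replicates 1 and 3, against 5.79 between replicates 2 and 3. Within the NELFE knockdown replicate 3 stood apart, with 21.3 and 21.6 against replicates 1 and 2, which differed by 4.27. The pair of NELFB libraries differed by 6.03. No pair of libraries was close enough to be a copy. Tests of the 10 genes and numbers of genes called are given below with and without these libraries. Other genes and lists were tested with all libraries only. The study's methods describe the knockdown replicates as independent biological replicates, and p-values measure the spread between these libraries.

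Markers of other cell types were checked in the same libraries. Of 10 haematopoietic markers, MPO and HBG1 had no read in any library, PTPRC, SPI1 and ITGAM had at most 3 in any library, and the summed level was 0.436 to 0.621 CPM (counts scaled to a common library size) in control cells and 0.832 to 3.24 CPM after knockdown. CD34, the most abundant of them over the 8 libraries and the 1 of the 10 with enough reads to be tested, was at 0.0436 to 0.133 CPM in control cells and 0.259 to 2.79 CPM after knockdown and was called higher. The other 9 summed to between 0.361 and 0.488 CPM in control cells and to between 0.166 and 0.734 CPM after knockdown, and these groups overlapped. The fibroblast markers DCN, LUM and FAP had no read. The 9 fibroblast markers summed to between 138 and 154 CPM in control cells and to between 164 and 215 CPM after knockdown, with PDGFRA the most abundant (118 to 133 CPM in control, 139 to 179 CPM after knockdown, near the level of LMNA and EMD), and 2 of the 3 that could be tested, COL3A1 and PDGFRA, rose. Without PDGFRA the sums overlapped, at 19.6 to 30.2 CPM in control cells and 18.2 to 55.7 CPM after knockdown. Of the 6 epithelial markers KRT19 had no read, KRT18 was the most abundant, and KRT8 and KRT18 rose among the 3 that could be tested, with a summed level of 31.6 to 34.0 CPM in control cells and 37.3 to 75.3 CPM after knockdown. Their part in the results on lamina genes was not tested.

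The guides are shown because they define the groups, 5′ to 3′, with the 12 bases next to the PAM in capitals.
NELFE: gggcgcgGCCGGAGACCGT
NELFB: gccgagcTGGAGGGCGCCG
On GRCh38, the NELFE guide matched the minus strand of chr6:31958918-31958936, in the 5′ UTR of the first exon of NELFE, and the NELFB guide matched the plus strand of chr9:137255369-137255387, in coding sequence of the first exon of NELFB. Around the canonical start sites of the 10 lamina genes (500 bases to either side), the longest run that matched the PAM end of the NELFE guide beside an NGG was 6 bases, at LMNA, and 1.89% of 19962 protein-coding start sites had as long a run. For the NELFB guide it was 8 bases, at LMNB2, with as long a run at 5.02% of start sites, followed by 7 bases at LMNB1 (10.6% of start sites). At their own targets the guides matched over all 19 bases.

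NELFE and NELFB were lower in the libraries labelled for them. NELFE was at 50.6, 49.5 and 47.8 CPM in control cells, at 2.41, 2.38 and 2.98 CPM with the guide against it, and at 61.4 and 56.6 CPM in the NELFB knockdown. NELFB was at 74.6, 72.8 and 78.7 CPM in control cells, at 3.08 and 2.76 CPM with its own guide, and at 63.5, 64.2 and 64.0 CPM in the NELFE knockdown. Of the remaining subunits, NELFA fell by 0.36 on the log2 scale over the pooled knockdowns (SE 0.0739, edgeR adjusted p = 0.00563), and NELFCD had a log2 change of 0.17 (SE 0.0633, edgeR adjusted p = 0.0748). At an adjusted p under 0.05, NELFA and NELFB were both lower in the NELFE knockdown alone, and NELFA did not pass in the NELFB knockdown alone. ADAM22, which the control guide is directed to, was at 13.7, 12.9 and 11.2 CPM in control libraries, at 40.3, 47.6 and 29.9 CPM in the NELFE knockdown and at 35.6 and 40.8 CPM in the NELFB knockdown. It was thus lower in all 3 control libraries than in any of the other 5 (log2 difference of the knockdowns from control 1.62, SE 0.143, edgeR adjusted p = 7.43e-05). With no library free of both kinds of guide, silencing of ADAM22 in control cells and a rise with NELF knockdown cannot be told apart.

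In control cells the lamina genes fell into a high and a low set when levels were compared per exon length, in TPM (counts scaled by exon length and library size). LMNB1 was the highest, at 455 ± 41.1 TPM (SD, n = 3), and its 3 libraries lay above those of every other member. Its mean stood above 98.7% of the protein-coding genes that had a read in any of the libraries. BANF1 (290 ± 19.2 TPM), EMD (286 ± 12.4 TPM), TMPO (278 ± 18.2 TPM), LMNB2 (260.4 ± 19.6 TPM) and LBR (238 ± 28.8 TPM) followed, and no neighbours in this series were separated by their libraries. The levels then dropped to LMNA at 68.7 ± 4.29 TPM, SUN1 at 53.9 ± 7.52 TPM, LEMD3 at 39.0 ± 5.06 TPM and LEMD2 at 28.0 ± 1.55 TPM, each separated from the next by all 3 libraries. Control cells thus had more mRNA of the B-type lamins than of LMNA, which stood above 84% of the same protein-coding genes. The union of exons was used as length, and with the longest transcript as length 5 of the 10 ranks were kept and TMPO came first (418 TPM) ahead of LMNB1 (347 TPM).

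**Figure D1:**
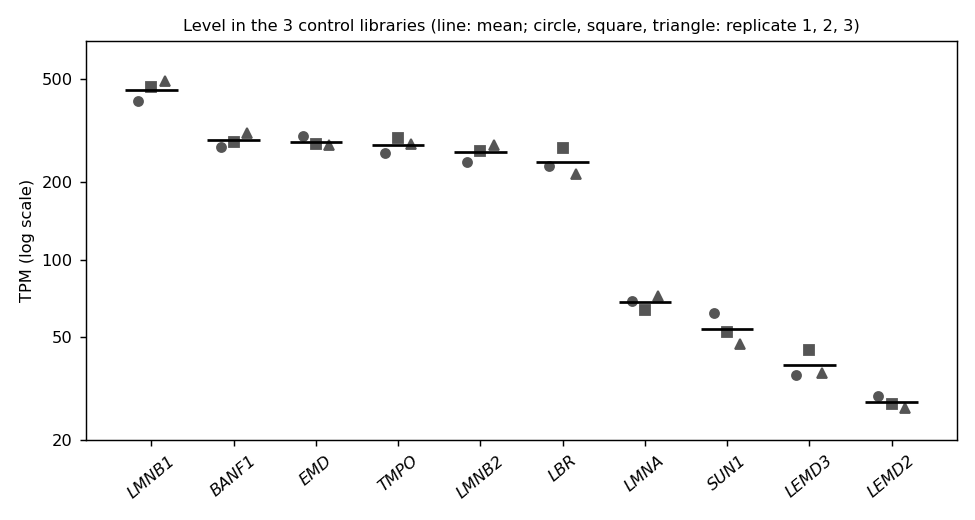
Level of each gene in the 3 control libraries, in TPM on a log axis, in order of the mean (line). LMNB1 lies above all others, 5 genes from BANF1 to LBR overlap between 214 and 311 TPM, and LMNA, SUN1, LEMD3 and LEMD2 lie below 73 TPM.

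The B-type lamins fell on NELF knockdown and LMNA gave no such change. LMNB1 was at 359.7, 413 and 440.1 CPM in control cells, at 275, 298 and 375 CPM in the NELFE knockdown and at 283 and 311 CPM in the NELFB knockdown. NELFE replicate 3 reached into the control range, and the other knockdown libraries lay below every control library. With the 5 knockdown libraries set against the 3 control libraries, LMNB1 fell by 0.39 on the log2 scale (SE 0.103), a 1.31-fold decrease (edgeR quasi-likelihood test, Benjamini-Hochberg adjusted p = 0.0168 over 16367 genes), and values with an adjusted p under 0.05 are called changed below. In this bulk RNA, fewer cells of a type and less RNA per cell cannot be told apart. The log2 change was -0.36 in the NELFE knockdown (adjusted p = 0.0714) and -0.44 in the NELFB knockdown (adjusted p = 0.0446). In 8 fits that each omitted 1 library the pooled change ranged from -0.48 to -0.32 (adjusted p from 0.00119 to 0.0704). The call was lost without control replicate 2 (adjusted p = 0.0642) and without control replicate 3 (adjusted p = 0.0704). The NELFB call held in 3 of the 8 fits, and was lost without control replicate 2 (0.111) or 3 (0.104), NELFE replicate 2 (0.0608), or NELFB replicate 1 (0.284) or 2 (0.124), these being adjusted p-values. The NELFE knockdown was called for LMNB1 with DESeq2 (0.0387), without a filter on low counts (0.0019), without control replicate 1 (0.0368) and without NELFE replicate 3 (0.00777). A block on the replicate number, which was not taken as a pairing, also called LMNB1 in each knockdown.

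LMNB2, which encodes the other B-type lamin, was at 312, 347 and 371 CPM in control cells, at 296, 285 and 306 CPM in the NELFE knockdown and at 262 and 297 CPM in the NELFB knockdown. All 5 knockdown libraries lay below the control libraries, though NELFE replicate 3 and control replicate 1 were close. The pooled log2 change was -0.25 (SE 0.0745, edgeR adjusted p = 0.0311), and neither knockdown alone was called (-0.22, adjusted p = 0.117 for NELFE; -0.29, adjusted p = 0.0585 for NELFB). The NELFB value of LMNB2 was called with DESeq2 (adjusted p = 0.0313), without a filter (0.0294), without control replicate 1 (0.0159) and without NELFE replicate 3 (0.0467), and the NELFE value without control replicate 1 (0.037). A block on the replicate number called LMNB2 in each knockdown. The pooled call held in 2 of 8 fits with a library left out, those without control replicate 1 (adjusted p = 0.0117) and without NELFE replicate 3 (adjusted p = 0.0182). It was lost without control replicate 2 (0.101) or 3 (0.145), NELFE replicate 1 (0.0541) or 2 (0.0663), or NELFB replicate 1 (0.0742) or 2 (0.0522), these being adjusted p-values.

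LMNA was at 136, 127 and 146 CPM in control cells, at 129, 119 and 172 CPM in the NELFE knockdown and at 137 and 146 CPM in the NELFB knockdown. NELFE replicate 3 was the highest of all 8 libraries and NELFE replicate 2 the lowest. The pooled log2 difference was 0.04, with a 95% interval from -0.19 to 0.27 (edgeR adjusted p = 0.818). Its sign changed without NELFE replicate 3, where it was -0.05, and without control replicate 2, where it was -0.01. As a description, the ratio of LMNB1 to LMNA in TPM was 5.92, 7.26 and 6.75 in control cells. It was 4.79, 5.63 and 4.88 in the NELFE knockdown and 4.63 and 4.78 in the NELFB knockdown. The 5 knockdown ratios lay below the 3 control ratios, and this difference between the genes was not tested. LMNA made up 8.09% to 9.63% of lamin TPM in control cells and 9.75% to 11.7% after knockdown.

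**Figure D2:**
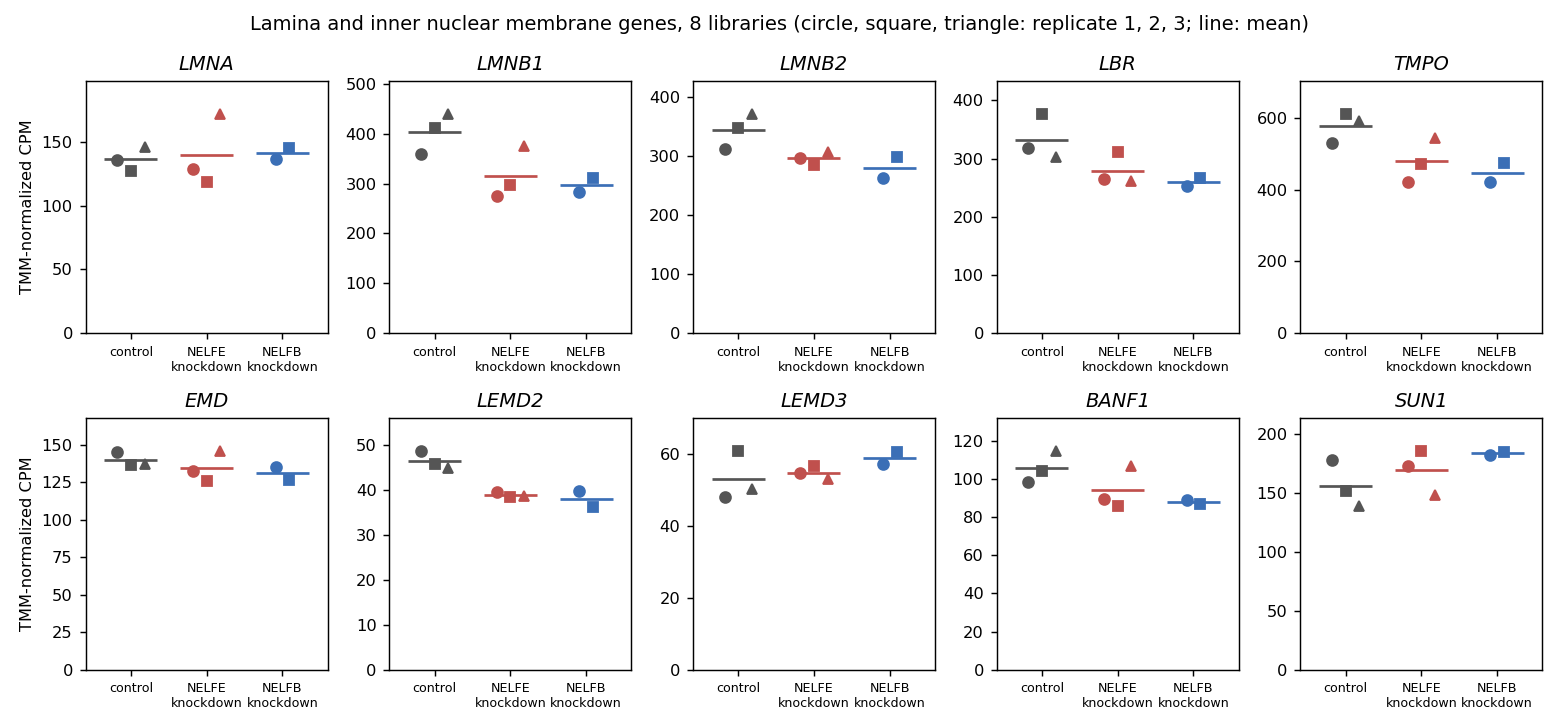
TMM-normalized CPM of each gene in the 8 libraries, by group, with the group mean as a line and the replicate number as the symbol. LMNB2 and LEMD2 are lower in all 5 knockdown libraries than in all 3 control libraries, LMNB1, LBR, TMPO and BANF1 have lower means with 1 knockdown library inside the control range, and LMNA, EMD, LEMD3 and SUN1 overlap between control and pooled knockdown.

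LBR, a membrane protein that binds B-type lamins and heterochromatin and also acts as a sterol reductase, was at 318, 377 and 302 CPM in control cells, at 264, 310.4 and 262 CPM in the NELFE knockdown and at 253 and 267 CPM in the NELFB knockdown. NELFE replicate 2 lay inside the control range and the other 4 knockdown libraries below it. The pooled log2 change was -0.29 (SE 0.0877, edgeR adjusted p = 0.0298), and the NELFB knockdown alone was called (-0.35, adjusted p = 0.0489) while the NELFE knockdown was not (-0.26, adjusted p = 0.106, or 0.048 without a filter). A block on the replicate number called LBR in each knockdown. With libraries left out the pooled change ranged from -0.36 to -0.20 and the adjusted p from 0.0165 to 0.155. The call was lost without control replicate 2 (0.155), NELFE replicate 1 (0.065), NELFB replicate 1 (0.0739) or NELFB replicate 2 (0.0643). The NELFB call was lost in the same 4 fits (0.152, 0.066, 0.269 and 0.148 as adjusted p), and also with at least 10 counts in every library and with only the libraries compared (adjusted p up to 0.058).

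TMPO, which encodes the lamina-associated polypeptide 2 proteins, had the most reads of the family. It was at 532, 612 and 591 CPM in control cells, at 421, 471 and 545 CPM in the NELFE knockdown and at 421 and 475 CPM in the NELFB knockdown. Only NELFE replicate 3 lay above a control library, control replicate 1. TMPO fell by 0.31 on the log2 scale over both knockdowns (SE 0.0901, edgeR adjusted p = 0.0268), with -0.27 for NELFE (adjusted p = 0.102) and -0.37 for NELFB (adjusted p = 0.0517). The NELFB value stood at the threshold, and TMPO was called lower there with DESeq2 (0.021), with DESeq2 size factors (0.0479), without a filter on low counts (0.00362) and with only the libraries compared (0.0358), but not with at least 10 counts in every library (0.0542), all as adjusted p. It was also called for NELFB without control replicate 1 (0.0258), NELFE replicate 1 (0.0458) or NELFE replicate 3 (0.0189), and the other 5 such fits reached 0.337. For NELFE it was called without a filter (0.0288) and without NELFE replicate 3 (0.021). A block on the replicate number called TMPO in each knockdown. The pooled call held without control replicate 1 (0.0181) and without NELFE replicate 3 (0.00326). It was lost without control replicate 2 (0.114) or 3 (0.0778), NELFE replicate 1 (0.0631) or 2 (0.0513), or NELFB replicate 1 (0.066) or 2 (0.0511), these being adjusted p-values. TMPO-AS1, an antisense RNA whose exons share 7.6% of the TMPO exon bases in GENCODE v44, had a pooled log2 change of -0.02 (adjusted p = 0.901), and counting without strand cannot separate reads of the shared bases.

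Among the other LEM-domain genes LEMD2 fell and EMD and LEMD3 gave no call. LEMD2 was at 48.7, 45.8 and 44.7 CPM in control cells, at 39.6, 38.4 and 38.6 CPM in the NELFE knockdown and at 39.7 and 36.3 CPM in the NELFB knockdown. The 5 knockdown libraries lay below the 3 control libraries with little spread in either group. The pooled log2 change was -0.27 (SE 0.0666), a 1.21-fold decrease (edgeR adjusted p = 0.0126), and LEMD2 was also called in the NELFE knockdown (-0.26, adjusted p = 0.0459) and in the NELFB knockdown (-0.29, adjusted p = 0.0403). No other member was called in both by this edgeR fit, whereas DESeq2 also called LMNB1 in both, and edgeR without a filter on low counts called LMNB1, LBR and TMPO in both and LEMD2 in neither. A block on the replicate number, which was not taken as a pairing, called LMNB1, LMNB2, LBR, TMPO and LEMD2 in both. The NELFE call of LEMD2 was lost without a filter (adjusted p = 0.109), with at least 10 counts in every library (0.0508) and with only the libraries compared (0.0709), and its NELFB call without a filter (0.0883) and with only the libraries compared (0.0656). Its pooled call held in all 8 fits with a library left out, with changes from -0.29 to -0.24 and adjusted p from 0.01 to 0.0396. In the same fits its NELFE call was lost every time, with adjusted p from 0.059 to 0.141, and its NELFB call held only without NELFE replicate 3 (adjusted p = 0.032).

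EMD, the gene of emerin, was at 145, 136 and 137 CPM in control cells, at 133, 126 and 146 CPM in the NELFE knockdown and at 135 and 127 CPM in the NELFB knockdown. Both NELFB libraries lay below the lowest control library, the NELFE libraries overlapped with control, and the pooled log2 difference of -0.07 had a 95% interval from -0.21 to 0.08 (edgeR adjusted p = 0.498). It ranged from -0.11 without NELFE replicate 3 (adjusted p = 0.187) to -0.04 without control replicate 1 (adjusted p = 0.7). LEMD3, whose protein MAN1 also restrains SMAD signalling, was at 48.0, 61.0 and 50.4 CPM in control cells, at 54.7, 56.7 and 53.2 CPM in the NELFE knockdown and at 57.2 and 60.7 CPM in the NELFB knockdown. Control replicate 2 was the highest library, the pooled log2 difference was 0.09 and its 95% interval ran from -0.10 to 0.28 (edgeR adjusted p = 0.483). Single control libraries moved this value, to 0.02 without control replicate 1 (adjusted p = 0.909) and to 0.19 without control replicate 2 (adjusted p = 0.143).

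BANF1, the small protein that links LEM-domain proteins to DNA, was at 98.7, 104 and 115 CPM in control cells, at 89.8, 85.6 and 107 CPM in the NELFE knockdown and at 89.2 and 87.0 CPM in the NELFB knockdown. Apart from NELFE replicate 3 the knockdown libraries lay below control. The pooled log2 difference was -0.21 (SE 0.0843, edgeR adjusted p = 0.0879) and was not called, whereas without NELFE replicate 3 it was -0.28 (adjusted p = 0.00964, the lowest of the 8 fits with a library left out, which reached 0.307). Without that library BANF1 was also called in each knockdown alone (adjusted p = 0.0448 for NELFE and 0.0431 for NELFB). With all libraries and a block on the replicate number, the pooled difference of BANF1 was called (edgeR adjusted p = 0.0281). SUN1, the inner-membrane side of the bridge to the cytoskeleton, was at 178, 152 and 139 CPM in control cells, at 173, 186 and 148 CPM in the NELFE knockdown and at 182 and 185 CPM in the NELFB knockdown. Both NELFB libraries and NELFE replicate 2 lay above control, and NELFE replicates 1 and 3 lay within the control range. The pooled log2 difference was 0.16, with a 95% interval from -0.05 to 0.37 (edgeR adjusted p = 0.232). With a library left out it ranged from 0.09 without control replicate 3 (adjusted p = 0.593) to 0.26 without control replicate 1 (adjusted p = 0.0529). In the NELFB knockdown the difference was 0.24 (adjusted p = 0.183), and it was called higher in 1 of 8 fits with a library left out, that without control replicate 1 (0.34, adjusted p = 0.0377, the others reaching 0.436). Exons of GET4 on the same strand share 15.5% of the exon bases of SUN1 in GENCODE v44, and STAR leaves reads that overlap both genes uncounted.

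Over the family, 5 of the 10 genes were called lower and none higher in the pooled comparison, against 12.7% of all 16367 tested genes called lower, 13.3% called higher and 26.0% called in either direction. The median log2 change of the 10 was -0.23, beside 0.00 over all tested genes. The family was chosen with earlier results of these data known, so these shares are a description and no excess was tested. In the NELFE knockdown 1 of 10 was called, against 7.04% of 16852 genes called lower, 7.92% called higher and 15.0% called in either direction, and the median was -0.20. In the NELFB knockdown 3 of 10 were called, all lower, against 8.88% called lower, 10.6% called higher and 19.5% called in either direction, and the median was -0.28. These comparisons share the 3 control libraries. Pooled knockdown and control libraries did not overlap for 2 of the 10, both lower, against 14.0% of all tested genes lower without overlap, 14.8% higher and 28.8% in either direction. NELFE and control libraries did not overlap for 2 of the 10, both lower, against 16.1% of all genes lower, 17.2% higher and 33.4% in either direction. With only 2 NELFB libraries, 7 of the 10 lay below control without overlap and 1 above, where 25.1% of all genes did so below, 26.8% above and 51.9% in either direction.

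**Figure D3:**
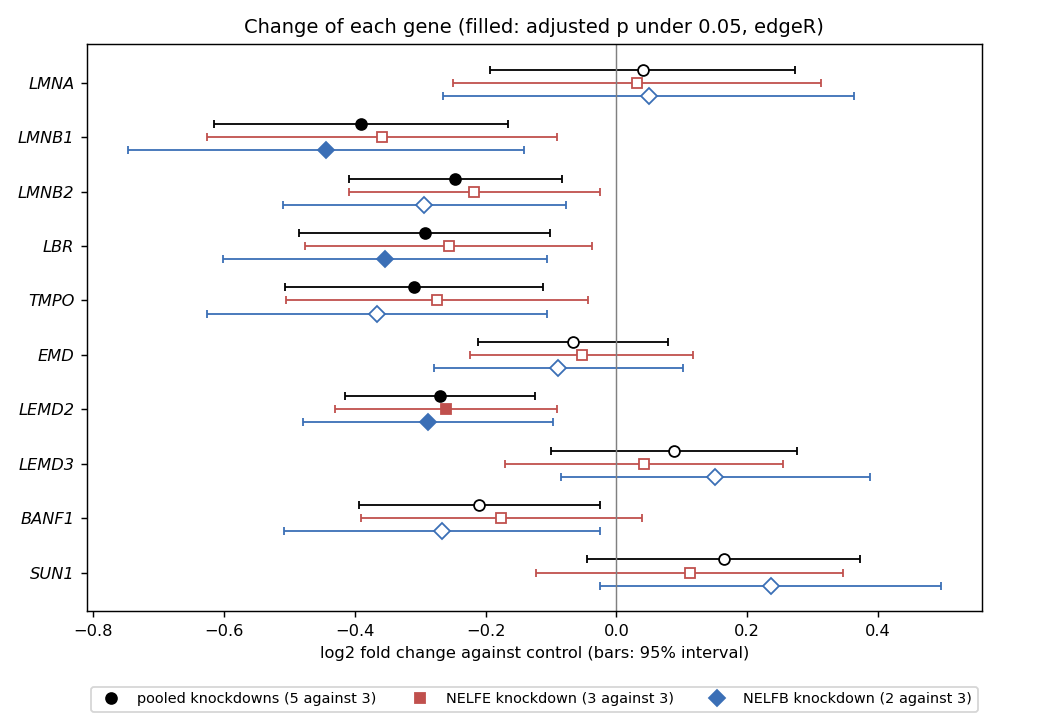
log2 fold change against control of each gene for the pooled knockdowns, the NELFE knockdown and the NELFB knockdown, with 95% intervals, and filled symbols for an adjusted p under 0.05. The pooled intervals of LMNB1, LMNB2, LBR, TMPO and LEMD2 lie below 0 with filled symbols, that of BANF1 lies below 0 with an open symbol, and those of LMNA, EMD, LEMD3 and SUN1 span 0.

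The count moved with the libraries used. Without control replicate 1 it stayed at 5, and without NELFE replicate 3 it was 6, with BANF1 added. It was 1 (LEMD2) without control replicate 2, 2 (LBR and LEMD2) without control replicate 3, 2 without NELFE replicate 1, 3 without NELFE replicate 2, and 2 without either NELFB library. Control replicate 2 also bore on the whole table, where the number of genes called fell from 4255 to 2688 without it. Over all genes, lower and higher pooled calls were 2073 and 2182 with all libraries and 2099 and 2133 without control replicate 1. Without control replicate 3 they were 1496 and 1497. They were 1553 and 1735 without NELFE replicate 1, 1592 and 1800 without NELFE replicate 2 and 2599 and 2526 without NELFE replicate 3. They were 1437 and 1592 without NELFB replicate 1 and 1558 and 1669 without NELFB replicate 2. The knockdowns were also set against each other, and none of the 10 genes was called by edgeR or DESeq2, and none had an unadjusted p under 0.05 in edgeR. The log2 differences of NELFB from NELFE knockdown lay between -0.10 (LBR, 95% interval from -0.34 to 0.15) and 0.12 (SUN1, from -0.14 to 0.38), with adjusted p from 0.983 to 0.994. Over all genes 0.315% (53 of 16852) were called in this comparison, 0.0771% higher and 0.237% lower in the NELFB knockdown, and 863 had an unadjusted p under 0.05. LEMD3 was the only member with no overlap between the knockdowns and was higher in the NELFB libraries, against 12.2% of all genes higher, 12.9% lower and 25.1% in either direction.

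Lists of cell-cycle genes were measured in the same libraries. Of 17 S-phase genes, 10 were called lower in the pooled comparison, none higher and 7 not called, with a median log2 change of -0.42. MCM6, MCM2 and MCM5, subunits of the replicative helicase, fell by 0.62 (adjusted p = 0.00348), 0.54 (adjusted p = 0.00196) and 0.52 (adjusted p = 0.00615) in the edgeR fit. In the single comparisons 5 of the 17 were called lower for NELFE, where 7.04% of all genes were, and 10 for NELFB, where 8.88% were. Of 17 genes of G2 and mitosis, 11 were called lower, none higher and 6 not called, with a median of -0.32. CDC20, an activator of the anaphase-promoting complex, fell by 0.75 (adjusted p = 0.000763), and the mitotic kinases AURKB and CDK1 fell by 0.71 (adjusted p = 0.000563) and 0.52 (adjusted p = 0.003). For these genes 6 were called lower for NELFE and 9 for NELFB, against the same shares of all genes.

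The summed S-phase level was 4076, 4690 and 5230 CPM in control cells, 3285, 3379 and 4460 CPM in the NELFE knockdown and 3098 and 3316 CPM in the NELFB knockdown. Control replicate 1 was the lowest control library and NELFE replicate 3 the highest knockdown library, the same libraries that were low and high for LMNB1, so that the groups overlapped. For G2 and mitosis the sums were 5830, 6307 and 6190 CPM in control cells, 4442, 5072 and 5284 CPM in the NELFE knockdown and 4440 and 5113 CPM in the NELFB knockdown, and these groups did not overlap. The part of the cell cycle in the lower lamina transcripts was not tested.

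**Figure D4:**
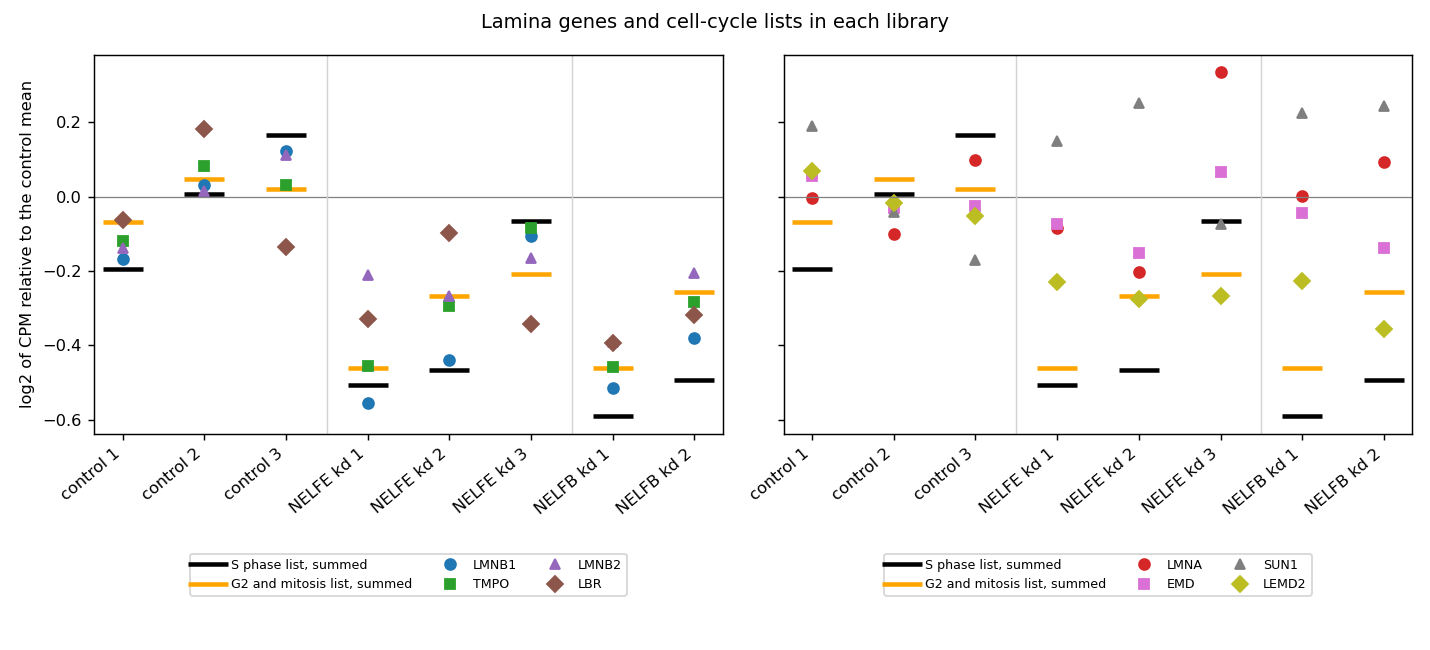
log2 of CPM relative to the control mean in each of the 8 libraries, for LMNB1, TMPO, LMNB2 and LBR (left) and LMNA, EMD, SUN1 and LEMD2 (right), with the summed S-phase list (black bars) and the summed G2 and mitosis list (orange bars) in both panels. LMNB1 and TMPO lie near the bars in most libraries, and LEMD2 lies below every control library in all 5 knockdown libraries.

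As a description over the 8 libraries, which share the difference between the groups, the log2 levels of LMNB1 and TMPO had a Pearson r of 0.977, LMNB1 and BANF1 0.928 and LMNB1 and LMNB2 0.899. SUN1 ran opposite to BANF1, with an r of -0.946. Among 8929 genes at or above 16 CPM on average, those most like LMNB1 were TARDBP (r = 0.997), ORC1 (r = 0.994) and CDCA4 (r = 0.993), and 713 genes had an r above 0.9. POGLUT3, KNSTRN and SPAG5 were most like TMPO (r from 0.989 to 0.991), and DHX30, ADRM1 and RXYLT1 most like LMNB2 (r from 0.982 to 0.988). TMX1 (r = 0.988), THOC2 (r = 0.956) and ITGA4 (r = 0.95) were most like LBR, for which 30 genes had an r above 0.9. CUTC, DHRS4-AS1 and PPP2R2C were most like LEMD2 (r from 0.982 to 0.988).

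Promoters are shown for LMNB1 and TMPO, which moved together, and for EMD, which gave no call. CCAAT boxes are common in promoters of genes with cell-cycle expression, and the motif CCAAT was searched on both strands (its reverse is ATTGG). The 150 bases before the RefSeq start site (GRCh38.p14, plus strand) follow, with the motif in capitals.
LMNB1, chr5:126776986-126777135: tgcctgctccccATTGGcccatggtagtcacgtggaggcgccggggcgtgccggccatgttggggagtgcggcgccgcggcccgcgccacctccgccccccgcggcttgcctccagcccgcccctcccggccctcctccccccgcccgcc
TMPO, chr12:98515440-98515589: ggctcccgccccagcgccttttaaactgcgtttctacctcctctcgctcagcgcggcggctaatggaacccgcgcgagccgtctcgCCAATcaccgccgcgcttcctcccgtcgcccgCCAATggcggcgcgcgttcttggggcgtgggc
EMD, chrX:154379145-154379294: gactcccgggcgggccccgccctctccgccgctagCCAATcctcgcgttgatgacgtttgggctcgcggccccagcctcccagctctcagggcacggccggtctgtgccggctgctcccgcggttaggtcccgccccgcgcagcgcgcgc
The motif stood 138 bases before the start in LMNB1, 64 and 32 bases before it in TMPO and 115 bases before it in EMD. In windows from 250 bases before to 50 bases after the start, 6 of the 13 RefSeq windows of 9 members held CCAAT (LMNA, LMNB1, EMD, TMPO and LEMD3), against 34.6% of 35116 windows. Of these 5 genes, LMNB1 and TMPO were called lower and LMNA, EMD and LEMD3 were not. LMNB2, which was called lower, and BANF1, which was not, had windows at the canonical start that held no CCAAT. In LMNA the match belonged to a start 32138 bases from the canonical one. The nearest windows of LMNA, LBR and LEMD2 lay 7995, 783 and 2188 bases from the canonical start, so that their canonical promoters were not searched. The letters TTTGAA, the core of the cell-cycle homology element, were found in 1 member window (15.2% of all windows), that of LMNB2, 246 bases before the start. TATAAA was found in no member window (11.5% of all windows) and GGGCGG, the core of a GC box, in 9 member windows (45.0% of all windows). A match is a description of the sequence and not a site.

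Other genes of the nuclear envelope were counted in the same pooled fit. Of 11 tested genes outside the family, on a list of inner nuclear membrane proteins and related genes such as ANKLE1 and the torsins, 4 were called lower and 2 higher. NRM (nurim), a membrane protein of the envelope, fell by 0.76 (SE 0.124, edgeR adjusted p = 0.00162), more than any of the 10 members. NEMP2 fell by 0.40 (adjusted p = 0.0161) and ANKLE1, a nuclease with a LEM domain, by 0.38 (adjusted p = 0.0194) in the same edgeR fit. TMEM43, whose protein LUMA binds lamins and emerin, rose by 0.53 (SE 0.0794, edgeR adjusted p = 0.00106), and TOR1AIP1, an activator of torsin ATPases, rose by 0.25 (adjusted p = 0.0453). In each knockdown alone, 2 of the 11 were called lower and 1 higher, where 7.04% and 7.92% of all genes were for NELFE and 8.88% and 10.6% for NELFB. NRM and TMEM43 were called in both by edgeR. NEMP2 was called for NELFE (adjusted p = 0.0494) and not NELFB (0.07), and ANKLE1 for NELFB (0.00549) and not NELFE (0.0718). TOR1AIP1 was called in neither (0.0727 for NELFE, 0.207 for NELFB). LEMD1 was too low to be tested.

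Of the LINC complex, which joins the lamina to the cytoskeleton, 6 of 9 genes were tested, and SYNE3 (-0.57, edgeR adjusted p = 0.0483) and SYNE2 (-0.32, adjusted p = 0.0427), both nesprins of the outer membrane, were called lower. In each knockdown alone none of the 6 was called by edgeR, with adjusted p of 0.104 (NELFE) and 0.16 (NELFB) for SYNE3 and of 0.107 and 0.13 for SYNE2. An unadjusted p under 0.05 was found for 2 of the 6 in the NELFE knockdown (SYNE2 and SYNE3) and for 1 in the NELFB knockdown (SYNE2). Over all 16852 tested genes, 5211 had one for NELFE and 5854 for NELFB. SUN2, the other main SUN protein of somatic cells, had a log2 difference of -0.04 (adjusted p = 0.785). None of the 5 genes that farnesylate, cleave or methylate lamins was called by edgeR. In the pooled comparison 1 of them, ICMT, had an unadjusted p under 0.05, as did 6306 of all 16367 tested genes. ICMT had a log2 difference of -0.24 (adjusted p = 0.112) and ZMPSTE24, the protease that matures prelamin A, 0.15 (adjusted p = 0.424).

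Of 14 genes listed for envelope reassembly after mitosis, which include kinases and anchoring proteins beside the machinery that seals the membrane, 2 were called higher and 1 lower, where 13.3% of all tested genes were called higher and 12.7% lower. VRK1, a kinase that phosphorylates BANF1, fell by 0.41 (edgeR adjusted p = 0.00363), while its paralog VRK2 rose by 0.37 (adjusted p = 0.0112) and SPAST, which cuts microtubules at the closing envelope, rose by 0.21 (adjusted p = 0.04). In each knockdown alone VRK1 and VRK2 were called in the same directions and SPAST was not (adjusted p = 0.124 for NELFE and 0.0742 for NELFB). Of 32 nuclear pore genes, 12 were called lower and none higher, with a median log2 change of -0.21. NUP205, of the inner ring, fell by 0.61 (SE 0.0645, edgeR adjusted p = 0.000163), NUP35 by 0.36 (adjusted p = 0.0453) and AAAS by 0.35 (adjusted p = 0.00292). In the NELFE knockdown alone 3 of the 32 were called lower, near the 7.04% of all genes, and in the NELFB knockdown 6, where 8.88% of all genes were.

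Of 12 genes of peripheral heterochromatin, 3 were called lower and none higher. UHRF1, which couples DNA methylation to replication, fell by 0.59 (edgeR adjusted p = 0.00209), and the H3K9 methyltransferases SUV39H1 and EHMT2 fell by 0.37 (adjusted p = 0.0116) and 0.24 (adjusted p = 0.0193). All 3 were called lower in the NELFB knockdown, and UHRF1 and SUV39H1 but not EHMT2 (adjusted p = 0.0758) in the NELFE knockdown. Of 9 enzymes of the sterol pathway in which LBR also acts, 4 were called lower and 1 higher. HSD17B7, MSMO1 and DHCR7 fell by 0.79 (edgeR adjusted p = 0.000969), 0.54 (adjusted p = 0.00102) and 0.48 (adjusted p = 0.000626), and SC5D rose by 0.35 (adjusted p = 0.0212). In the NELFB knockdown the same 4 were called lower and SC5D higher, and in the NELFE knockdown 3 were called lower (HSD17B7, MSMO1 and DHCR7) and SC5D was not called (adjusted p = 0.0903). For all these lists the background in the pooled comparison was the same 12.7% of tested genes called lower and 13.3% called higher. The lists, too, were chosen with earlier results of these data known, and no excess was tested. In the NELFE knockdown alone it was 7.04% lower and 7.92% higher, and in the NELFB knockdown alone 8.88% lower and 10.6% higher.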

How the data were processed

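The authors aligned single-end reads of 65 bases to GRCh38 with STAR 2.5.4a (FastQC 0.11.6 is also named) and deposited raw counts per gene of Gencode v24, unnormalized and without strand, with 1 column per library. The labels gave the groups. Names, exon lengths and TPM used GENCODE 44 by Ensembl identifier, which gave a symbol to 99.9% of counts. Genes were tested with edgeR 4.0.16 in R 4.3.3 (filterByExpr, TMM, robust quasi-likelihood, Benjamini-Hochberg over all tested genes, adjusted p under 0.05), pooled (5 against 3 libraries) or in a model of 3 groups. Intervals are 95%. The study used DESeq2, here version 1.42.0 as an alternative. On simulated counts of the pooled comparison (16131 genes), 100% of log2 changes of 2 and 85.9% of log2 changes of 1 were recovered, with 10 false calls. Changes as small as those of the members (at most 0.39 among those called) were not simulated. The simulated libraries had an assumed spread and none stood apart, so these figures do not give the recovery or the false calls for the members.

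Members, lists and tests were chosen with earlier results of these data known. Besides the members, the genes named are NELF subunits, markers, overlapping genes, up to 3 called genes per list and direction (average log2 CPM of at least 1), the 3 genes most correlated with each called member (average log2 CPM of at least 4), and SUN2, LEMD1, ICMT and ZMPSTE24, chosen after their values were seen. Alternatives were DESeq2, DESeq2 size factors, no filter, at least 10 counts in every library, a replicate block, a model of 3 groups for the pooled comparison, only the libraries compared, the longest transcript as length, and each library left out. The guides came from the study's oligonucleotide list, and promoters from RefSeq (9 of 10 members matched).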

Additional observations from a re-analysis of the deposited data

Results flagged for a closer look

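A library of a group of 5 was flagged where its gap to the nearest other library exceeded 0.71 of the range of the group, a rule that chance meets in about 1 in 20 groups. Over the 5 knockdown libraries and the 10 genes, 2 values met it. LBR in NELFE replicate 2 was at 310.4 CPM, above the other 4 knockdown libraries at 253 to 267 CPM. BANF1 in NELFE replicate 3 was at 107 CPM, above the other 4 at 85.6 to 89.8 CPM. Without NELFE replicate 2 the pooled log2 change of LBR was -0.35 (edgeR adjusted p = 0.0165), and without NELFE replicate 3 that of BANF1 was -0.28 (edgeR adjusted p = 0.00964).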

How the results depend on the processing

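Calls of lamina genes were close to the threshold. All 6 other fits of the pooled comparison kept the 5 calls. Called members in the NELFE knockdown were 2 with DESeq2 (LMNB1, LEMD2), 3 without a filter (LMNB1, LBR, TMPO), 0 with at least 10 counts in every library and 0 with only the libraries compared, and in the NELFB knockdown 5 with DESeq2 (LMNB2 and TMPO added), 4 without a filter, 4 with DESeq2 size factors, 2 with at least 10 counts in every library (LMNB1, LEMD2) and 2 with only the libraries compared (LMNB1, TMPO). Over all genes, lower and higher calls for NELFE were 1186 and 1334 (main fit), 1391 and 1502 (DESeq2) and 1562 and 1718 (no filter). They were 1117 and 1244 (at least 10 counts) and 811 and 947 (only the libraries compared). For NELFB they were 1497 and 1793 (main fit), 1779 and 1744 (DESeq2) and 1969 and 2154 (no filter). They were 1567 and 1754 (DESeq2 size factors), 1382 and 1572 (at least 10 counts) and 1402 and 1759 (only the libraries compared). Genes called between the knockdowns numbered 90 with DESeq2 and 161 without a filter. With the longest transcript, 5 ranks were kept.

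Same-numbered libraries did not deviate together throughout (r from -0.0352 to 0.562), so the numbers were not taken as pairs. Control and NELFE pairs had an r of 0.358, 0.0645 and 0.562, and NELFE and NELFB pairs 0.125 and 0.261. The control and NELFB values of -0.0352 and -0.0216 say little, since the NELFB libraries, centred on their mean, are exact opposites. Pairing is thus not excluded. Not every library correlated best with its own number: NELFE replicate 2 had an r of 0.295 with control replicate 1 and of 0.0645 with control replicate 2. With a replicate block, 4763 genes were called for NELFE and 195 between the knockdowns, members called were 6 pooled (BANF1 added), 5 for NELFE and 5 for NELFB (LMNB1, LMNB2, LBR, TMPO and LEMD2 in both), and the LMNB1 difference between knockdowns turned to 0.023. Over all genes, this block gave 2838 lower and 2798 higher calls pooled, 2355 and 2408 for NELFE, and 2312 and 2499 for NELFB.

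With each library left out, genes called ranged from 2688 to 5125 (pooled), 990 to 3123 (NELFE), 603 to 4316 (NELFB) and 27 to 78 (between knockdowns), and members called from 1 to 6, 0 to 3, 0 to 6 and 0 to 0. Signs turned for LMNA (pooled -0.0506 to 0.0951, NELFE -0.148 to 0.138, NELFB -0.00278 to 0.104, between knockdowns -0.0891 to 0.197), LEMD3 in NELFE (-0.0284 to 0.15) and, between knockdowns, LMNB1 (-0.177 to 0.0571), LMNB2 (-0.177 to 0.0039), EMD (-0.0913 to 0.028), TMPO (-0.187 to 0.0122), LEMD2 (-0.102 to 0.0296) and BANF1 (-0.155 to 0.0122). Leaving out a NELFB library assumed that the other varies like the other groups. The cause was not tested.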
